A study of Oryza sativa with 4 samples.

Results

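In paleas of the rice library labelled Osmads32, 158 of the 20675 genes kept stood at least 2-fold beyond the same gene in all 3 other genotypes. Of these, 80 were high in Osmads32, which is 0.387% of the genes kept, and 78 were low, which is 0.377%. Members were chosen by the FPKM values themselves (fragments per kilobase of transcript, scaled to depth). A gene was kept if the mean of its 4 genotype means reached 1 FPKM, and 1 FPKM was added before each ratio. A high member lay at least 2-fold above the highest of the other 3 genotypes, and a low member at least 2-fold below the lowest. All ratios of Osmads32 to another genotype were therefore used in the choice, and are given here as a description with no test.

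The palea is the smaller of the pair of bract-like organs that enclose the rice floret. The study compared paleas of 4 genotypes, with 1 sample each, from plants grown in a paddy field in Shanghai. The wild type (WT) and the rep1 deletion mutant were of Oryza sativa ssp. japonica. The Osmads6 mutant carried a Tos17 retrotransposon insertion in Nipponbare, and the Osmads32 mutant carried a T-DNA insertion in AF36. Genotype and background line therefore cannot be told apart. The labels name no developmental stage, batch or date, and no number of plants or pooling. Each sample had 2 columns of values, which were read as 2 runs of 1 sample, so n = 1 for each genotype and no p-value is given.

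OsMADS32 and OsMADS6 are MADS-box transcription factors with roles in the identity of floral organs, and REP1 is a TCP-family regulator of palea growth and of flower asymmetry. MADS-box proteins act in complexes that set which organ forms in each whorl, and the C- and D-class genes among them, with the YABBY gene DL, are known for their roles in the carpel and ovule. The palea itself is not a reproductive organ. The stress-related families that appear among the low members, DREB1 and heat shock factors, are transcription factors whose transcripts respond to cold, drought or heat in many plants.

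The targeted genes did not separate the libraries by label. OsMADS32 stood at 8.69 and 7.95 FPKM in the 2 runs of Osmads32, against 6.63 and 7.75 in WT, 14.6 and 15.3 in Osmads6, and 3.11 and 2.44 in rep1. OsMADS6 was lowest in WT, at 12.5 and 14.4 FPKM, against 124 and 130 in Osmads6, 257 and 267 in Osmads32, and 826 and 858 in rep1. The locus taken as REP1 was at no more than 11 reads in any run. Neither its name nor that of OsMADS32 passed the check described under the processing. The labels do not say where the insertions lie relative to the counted exons, so the levels of OsMADS32 and OsMADS6 cannot check these labels. OsMADS6 was higher in the library labelled Osmads6 than in the one labelled WT, and higher still in Osmads32 and rep1. Each genotype below is the library so labelled. Which genes are members does not depend on which of the other 3 libraries carries which label.

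The recovered depth ran from 40108347 to 60188285 reads per run. The runs of WT differed from each other more than those of the other genotypes. Between them 477 of the 20675 genes kept were at least 2-fold apart, against 77 in Osmads6, 128 in Osmads32 and 168 in rep1.

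Osmads32 and WT had few genes set apart from all other genotypes. Under the same rule WT had 124 genes (0.6% of those kept), 100 high (0.484%) and 24 low (0.116%). Osmads6 had 1514 (7.32%), 919 high (4.44%) and 595 low (2.88%). Rep1 had 1656 (8.01%), 612 high (2.96%) and 1044 low (5.05%). Osmads32 had 158 (0.764%). The members were a small portion of the genes that differed between Osmads32 and any one genotype. Against WT, 375 genes were at least 2-fold higher in Osmads32 (1.81% of the genes kept), of which the 80 high members made up 21.3%. A further 690 were at least 2-fold lower (3.34%), of which the 78 low members made up 11.3%. Against Osmads6 the members made up 6.47% of the 1236 higher genes (5.98% of the genes kept) and 4.96% of the 1573 lower ones (7.61%). Against rep1 they made up 4.02% of the 1988 higher genes (9.62%) and 5.83% of the 1337 lower ones (6.47%). These 3 comparisons share the Osmads32 library.

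**Figure D1:**
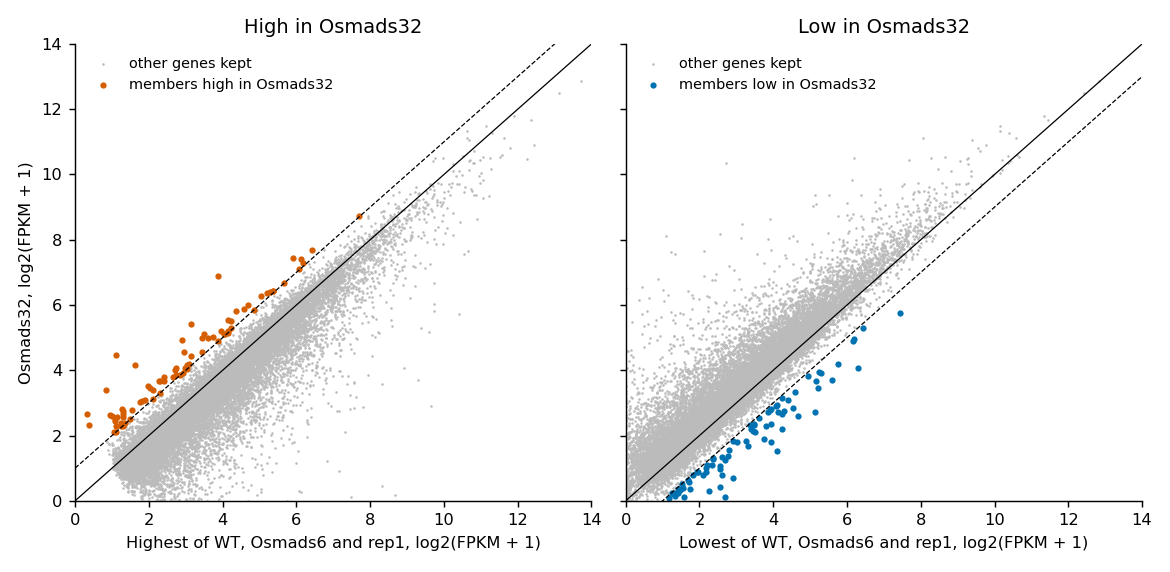
Each point is 1 of the 20675 genes kept, with its level in Osmads32 on the y axis and the highest (left) or lowest (right) level among WT, Osmads6 and rep1 on the x axis, all as log2(FPKM + 1) of the mean of 2 runs. The solid line marks equal levels and the dashed line the 2-fold threshold; the 80 high members (left, orange) and 78 low members (right, blue) mostly lie close to that line.

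Most members lay near the threshold. The median log2 gap to the nearest genotype was 1.25 for high members and -1.27 for low members, and 68 of the 80 high and 60 of the 78 low members had a gap under 3-fold. At least 4-fold was reached by 7 high and 9 low members. Just inside the threshold, the closest high members had log2 gaps of 1.0009 and 1.0012, and just outside lay genes at 0.99 and 0.97. Among low members the closest gaps were -1.0045 and -1.03, with genes just outside at -0.998 and -0.99. A further 33 genes lay between 1.8- and 2-fold above all other genotypes, and 41 lay as far below, so the border of the set has no gap in it.

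Between the runs the set was nearly free of overlap. Both Osmads32 runs lay above all 6 other runs for each of the 80 high members, and below all 6 for 77 of the 78 low members. Over all genes kept, 7.97% had both Osmads32 runs above the other 6 and 6.57% had both below. The rule itself favours such genes, and the runs are not separate samples. The 1 exception was LOC_Os09g01400, at 4.62 and 0.0895 FPKM in the WT runs (115 and 2 reads) and 0.248 and 0.101 FPKM in the Osmads32 runs. It sits among the first loci of chromosome 9, described below.

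High members spanned a wide range of levels. Their mean in Osmads32 ran from 3.31 to 419 FPKM, with a median of 15.9 FPKM. In 29 of them the other 3 genotypes were all at 5 FPKM or more, and in 4 they were all under 1 FPKM. Low members had a median of 2.52 FPKM in Osmads32, with a range of 0.0680 to 52.7 FPKM, and 25 of the 78 were under 1 FPKM there. In 50 low members the other 3 genotypes were all at 5 FPKM or more. At most 3 reads in both Osmads32 runs together were counted for 1 low member. In bulk paleas, fewer cells of a type and less RNA per cell cannot be told apart.

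The table does not pair its locus IDs with names, and 18 of the members could be named by the check described under the processing, 5 high and 13 low. The other 75 high and 65 low members are counted without a name, apart from the few below that are given by locus ID.

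DL and OsMADS58, both named high members, are known for roles in the carpel. DL (LOC_Os03g11600, chromosome 3) encodes a YABBY transcription factor needed for carpel identity and for the leaf midrib of rice. Its level therefore does not mark carpel tissue alone. DL was at 53.7 and 57.4 FPKM in the Osmads32 runs, against 24.5 and 13.6 in WT, 21.6 and 17.6 in Osmads6, and 0.617 and 0.381 in rep1. The Osmads32 runs were the highest, WT and Osmads6 overlapped at an intermediate level, and rep1 had 24 and 14 reads. Without the pseudocount the mean of DL in Osmads32 was 2.92 times that in WT, 2.83 times that in Osmads6 and 111 times that in rep1.

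OsMADS58 (LOC_Os05g11414, chromosome 5) is a C-class gene of the AGAMOUS family, with a role in the determinacy of the floral meristem and in carpel development. It was at 6.0 and 6.11 FPKM in Osmads32 (161 reads in each run), 1.73 and 1.13 in rep1, 0.421 and 0.268 in WT, and 0.350 and 0.160 in Osmads6. All 6 other runs lay below 2 FPKM, and the nearest genotype, rep1, was 4.23-fold lower without the pseudocount.

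The carpel and ovule marker list holds DL, OsMADS58 and 3 further MADS-box genes. Its summed level was 87.0 and 92.4 FPKM in the Osmads32 runs, against 29.6 and 20.2 in WT, 23.5 and 18.8 in Osmads6, and 26.9 and 28.6 in rep1. Most of the sum came from DL in Osmads32, WT and Osmads6. In rep1 DL gave only 0.617 and 0.381 FPKM of it. DL and OsMADS58 were chosen for their high values in Osmads32. The 3 markers that are no members summed to 27.3 and 28.8 FPKM in Osmads32 and to nearly as much in rep1, 24.6 and 27.1, against 4.69 and 6.25 in WT and 1.55 and 1.08 in Osmads6. None of the 5 markers was under 0.5 FPKM in all runs. DL and OsMADS58 were highest in Osmads32 by the rule. OsMADS13 and OsMADS21 were highest there without being members, and OsMADS3 was not. DL, OsMADS58 and OsMADS21, 3 of the 5, were at least 2-fold above every other genotype. Over all genes kept, 18.4% had their highest mean in Osmads32. DL and OsMADS58 were chosen for this, and OsMADS21 is not among the genes kept.

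The third marker past 2-fold was OsMADS21, a D-class gene of the same family, which fell short of the 1 FPKM filter and is no member. It was at 2.04 and 2.41 FPKM in Osmads32 (124 and 144 reads) and at 0.499 FPKM or less in every other run. OsMADS13, the D-class gene known for ovule identity, was at 17.41 and 19.6 FPKM in Osmads32 and at 10.2 and 11.5 in rep1, so it missed the threshold through rep1 alone. It was at 0.423 and 0.691 FPKM in WT and at 0.123 and 0 in Osmads6. OsMADS3, the other C-class gene, was instead highest in rep1, at 14.4 and 15.1 FPKM, with 7.81 and 6.79 in Osmads32. Rep1 was thus the nearest genotype for OsMADS13 and OsMADS58, and the highest for OsMADS3.

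Markers of other tissues did not single out Osmads32. The anther and tapetum list summed to 231 FPKM in Osmads32, between WT at 282, rep1 at 331 and Osmads6 at 50.0. Lodicule and stamen genes summed to 134 FPKM in Osmads32, 171 in rep1, 82.2 in WT and 50.4 in Osmads6, and green tissue genes to 1504, 2624, 2810 and 498 in the same order. None of the genes on these 3 lists was at least 2-fold above every other genotype in Osmads32. The sums include loci whose names did not pass the check. It was passed by 3 of the 6 green tissue genes and 10 of the 12 anther and tapetum genes. Genes of palea and lemma identity summed to 787 FPKM in Osmads32, 784 in WT, 730 in Osmads6 and 1197 in rep1, so RNA of this list was present in all 4. The list holds the targeted gene OsMADS6, itself lowest in WT and highest in rep1. Its sums therefore do not compare the other palea and lemma markers between genotypes. The part of carpel tissue in the high members was not tested.

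**Figure D2:**
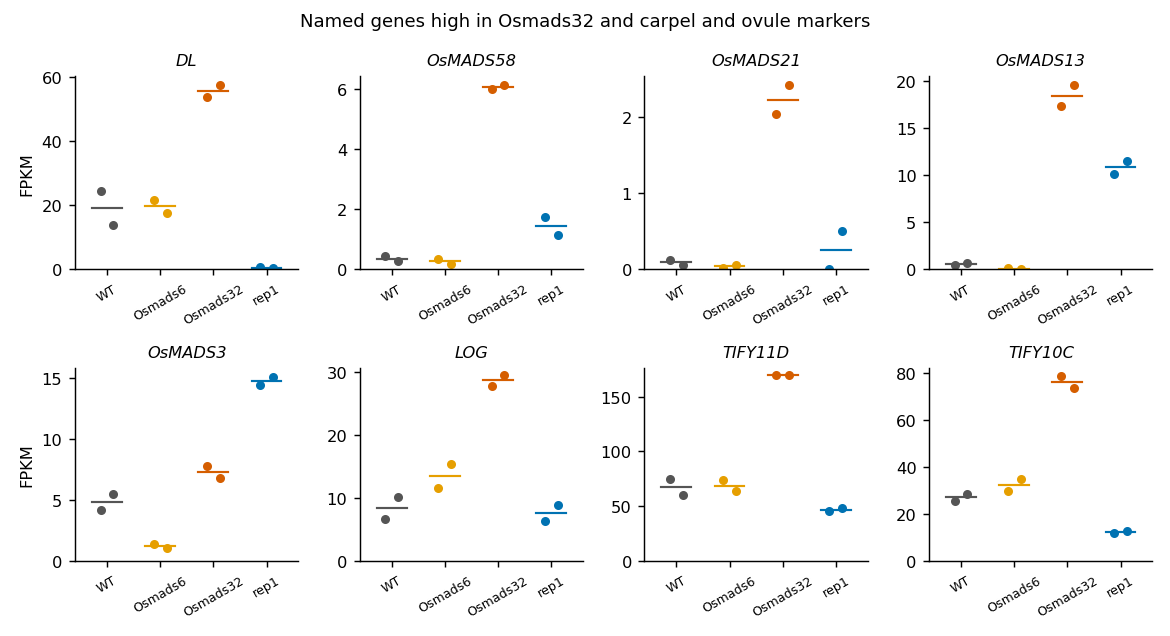
FPKM (linear y axis from 0) of the 5 named high members and of the carpel and ovule markers OsMADS21, OsMADS13 and OsMADS3 in each genotype; each point is 1 run and each bar the mean of 2 runs. The Osmads32 points are the highest in every panel but that of OsMADS3, where rep1 is higher.

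LOG (LOC_Os01g40630, chromosome 1) encodes a cytokinin-activating enzyme first described from the rice shoot meristem. It was at 27.9 and 29.6 FPKM in Osmads32, against 11.6 and 15.5 in Osmads6, 6.66 and 10.1 in WT, and 6.37 and 8.94 in rep1. The gap to Osmads6 was 1.03 on the log2 scale, close to the threshold, and with the first Osmads6 run left out it was 0.85, which is outside. Of the 7 kept genes on the KNOX and meristem list, LOG alone was a member and LOG alone was highest in Osmads32.

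The remaining named high members are repressors of jasmonate signalling. TIFY (JAZ) proteins hold back jasmonate-responsive transcription until the hormone triggers their breakdown, and many of their own genes are induced by jasmonate. TIFY11D (LOC_Os10g25290) was at 170 and 169 FPKM in Osmads32, against 74.7 and 60.0 in WT, 74.0 and 63.5 in Osmads6, and 45.7 and 48.0 in rep1. TIFY10C (LOC_Os09g26780) was at 78.7 and 73.7 FPKM in Osmads32, against 25.5 and 28.7 in WT, 29.7 and 34.7 in Osmads6, and 11.8 and 12.7 in rep1. In both genes WT and Osmads6 were close to each other and rep1 was the lowest.

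Of 11 jasmonate repressors kept, 2 were members, which the rule chose for being high, and 9 were not. Among those 9, 7 were highest in Osmads32 and 0 lowest, where 18.4% of all genes kept were highest there. At least 2-fold higher levels in Osmads32 were reached by 3 of the 9 against WT, 2 against Osmads6 and 4 against rep1, and at least 2-fold lower levels by 0 against each. Over all genes kept, 1.81%, 5.98% and 9.62% were at least 2-fold higher in that order, and 3.34%, 7.61% and 6.47% lower. The median log2 ratios of the 9 were 0.60, 0.80 and 0.92 in that order, where all genes kept had medians of -0.03, -0.03 and 0.10. These 3 comparisons share the Osmads32 library. The genes for jasmonate synthesis and perception held no member among 9 kept. Of these 9, 5 were highest in Osmads32 and 1 was lowest, with median log2 ratios of 0.17 to WT, 0.36 to Osmads6 and 0.83 to rep1, and 1 gene against WT, 0 against Osmads6 and 4 against rep1 were at least 2-fold higher. At least 2-fold lower was 1 gene, against rep1.

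The widest gaps among high members belonged to loci with no checked name. LOC_Os08g12410, on chromosome 8, was at 18.7 and 23.22 FPKM in Osmads32 (1263 and 1538 reads) and at 1.31 FPKM or less in each other run, a log2 gap of 3.34. LOC_Os02g48770, on chromosome 2, was at 119 and 114 FPKM in Osmads32, 16.5 and 11.001 in WT, 3.33 and 3.41 in Osmads6, and 4.64 and 2.99 in rep1, a log2 gap of 2.997. Both were far above every other run, and for both the nearest genotype was WT.

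Among the low members, 5 belong to 1 family, the DREB1 (CBF) genes. DREB1 proteins are AP2-domain transcription factors that bind the dehydration-responsive element and are best known for the response to cold. DREB1G (LOC_Os02g45450) had the widest gap of the family, -1.50 on the log2 scale. It was at 1.38 and 0.800 FPKM in Osmads32, 7.43 and 2.39 in WT, 11.7 and 12.1 in Osmads6, and 13.02 and 9.98 in rep1. The WT runs were far apart, and the second of them set the short distance to Osmads32.

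DREB1A and DREB1H lie side by side on chromosome 9 (LOC_Os09g35030 and LOC_Os09g35020). DREB1A was at 1.29 and 1.51 FPKM in Osmads32, 6.02 and 4.97 in WT, 6.37 and 8.28 in Osmads6, and 19.1 and 14.7 in rep1. DREB1H was at 3.37 and 3.44 FPKM in Osmads32, 12.3 and 7.37 in WT, 11.2 and 11.4 in Osmads6, and 32.1 and 25.04 in rep1. In both, Osmads32 was the lowest, WT and Osmads6 were in between and rep1 was the highest.

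DREB1C (LOC_Os06g03670) was at 4.94 and 6.24 FPKM in Osmads32, 18.4 and 17.0 in WT, 23.1 and 30.8 in Osmads6, and 15.9 and 16.91 in rep1. DREB1E (LOC_Os04g48350) was at 5.92 and 5.18 FPKM in Osmads32, 23.3 and 11.2 in WT, 13.5 and 13.6 in Osmads6, and 33.2 and 24.7 in rep1. For these, too, all 6 other runs lay above both Osmads32 runs.

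Of the 9 DREB1 genes with a checked name, 7 were kept and 6 of the 7 were lowest in Osmads32, as were 3607 of all 20675 genes kept (17.45%). The 5 members among them were chosen for this. The sixth, DREB1B, the next locus to DREB1H, was at 8.04 and 10.7 FPKM in Osmads32 and 21.2 and 10.3 in WT, so the groups overlapped and the log2 gap of -0.69 was outside the threshold. DREB1F was the exception, at 6.29 and 7.08 FPKM in Osmads32, 7.63 and 8.53 in Osmads6, 1.88 and 0.799 in WT, and 0.392 and 0.829 in rep1. DREB1B and DREB1F were singled out after their values were seen, and most of the family was added to the lists after members had been seen. These are the 2 kept genes of the family that are no members, and of them DREB1B alone was lowest in Osmads32. DREB1A, DREB1B and DREB1H are close copies in tandem, and their counts are uncertain to the extent that reads were shared among them.

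Heat shock genes made up another 5 of the 13 named low members. HSFA2C (LOC_Os10g28340), a heat shock factor of the activating class, was at 2.57 and 2.56 FPKM in Osmads32, 8.88 and 8.23 in rep1, 10.2 and 11.2 in Osmads6, and 22.1 and 21.4 in WT. HSFB2C (LOC_Os09g35790), of a class that lacks the activation domain, was at 0.676 and 0.995 FPKM in Osmads32, 2.59 and 3.11 in Osmads6, 3.63 and 3.82 in rep1, and 10.9 and 7.60 in WT. In both, Osmads32 was the lowest, WT the highest and the other mutants lay in between.

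HSFB2B (LOC_Os08g43334), of the same class, was at 0.0735 and 0.0624 FPKM in Osmads32, which is 6 and 5 reads. It was at 0.792 and 1.72 FPKM in Osmads6, 1.83 and 1.86 in rep1, and 2.38 and 3.64 in WT. Because 1 FPKM was added before the ratio was taken, its log2 gap was -1.08, although the mean in Osmads6 was 18.5 times that in Osmads32 without it.

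HSP17.4 and HSP18.1 are neighbouring genes for small heat shock proteins, which are chaperones that bind unfolding proteins (LOC_Os03g16020 and LOC_Os03g16030, chromosome 3). HSP17.4 was at 4.81 and 7.19 FPKM in Osmads32, 13.9 and 14.8 in Osmads6, 17.3 and 12.1 in rep1, and 194 and 154 in WT. HSP18.1 was at 2.72 and 2.27 FPKM in Osmads32, 7.47 and 6.86 in Osmads6, 9.58 and 6.07 in rep1, and 73.9 and 47.4 in WT. In these genes WT stood farther from the other 3 than Osmads32 did. The mean of HSP17.4 in WT was 29.1 times that in Osmads32, but the means in Osmads6 and rep1 were only 2.39 and 2.45 times as high. Small heat shock genes can share reads with close copies.

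Of 16 heat shock factors kept, 3 were low members, against 0.377% of all genes kept. Of the 13 that are no members, 6 were lowest in Osmads32 and 1 was highest, where 17.45% of all genes kept were lowest and 18.4% highest. The median log2 ratios of these 13 were -0.26 to WT, -0.26 to Osmads6 and -0.38 to rep1, against -0.03, -0.03 and 0.10 for all genes kept. Of 10 small heat shock and chaperone genes kept, 2 were low members. Of the 8 that are no members, 4 were lowest and 1 was highest in Osmads32, and their medians were -0.83 to WT, -0.35 to Osmads6 and -0.32 to rep1. At least 2-fold lower in Osmads32 were 3 of the 8 against WT, 0 against Osmads6 and 2 against rep1. The shares over all genes kept were 3.34%, 7.61% and 6.47% in that order. At least 2-fold higher were 0 against WT, 1 against Osmads6 and 3 against rep1, where all genes kept had 1.81%, 5.98% and 9.62%.

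**Figure D3:**
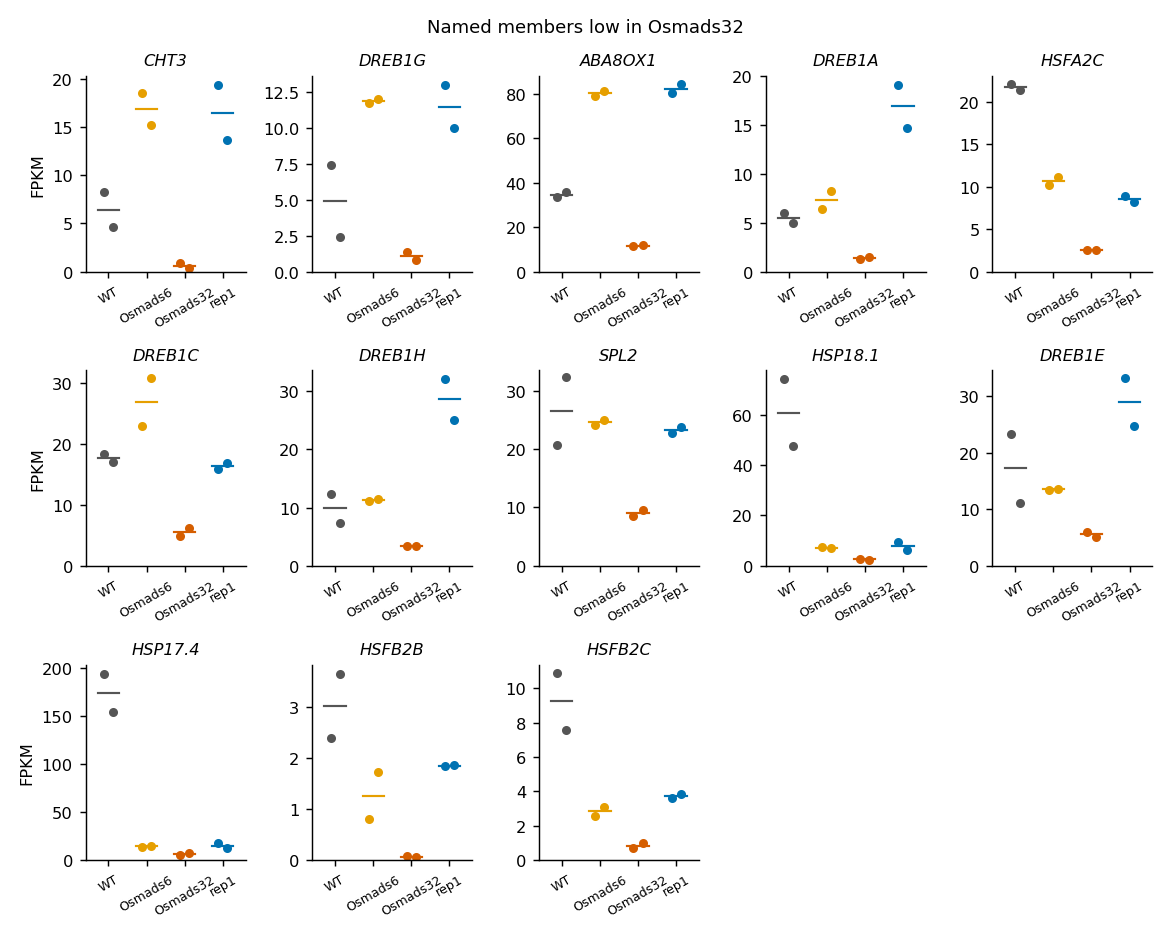
FPKM (linear y axis from 0) of the 13 named low members in each genotype, in order of their gap; each point is 1 run and each bar the mean of 2 runs. The Osmads32 points are the lowest in every panel, rep1 or Osmads6 is the highest for CHT3, ABA8OX1 and the DREB1 genes, and WT for the heat shock genes and, by its mean, SPL2.

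The other named low members act in 3 different processes. CHT3 (LOC_Os06g51050), a chitinase of the defence response, had the widest gap of all named low members, -2.21. It was at 0.889 and 0.328 FPKM in Osmads32 (47 and 17 reads), 8.22 and 4.67 in WT, 18.5 and 15.2 in Osmads6, and 19.4 and 13.7 in rep1. CHT3 was the 1 member among 13 kept genes of the defence and WRKY list. Of the 12 others, 4 were lowest in Osmads32, against 17.45% of all genes kept.

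ABA8OX1 (LOC_Os02g47470) encodes an abscisic acid 8'-hydroxylase, which starts the breakdown of the hormone. It was at 11.5 and 11.9 FPKM in Osmads32, 33.5 and 35.7 in WT, 79.1 and 81.6 in Osmads6, and 80.4 and 84.4 in rep1. The runs of each genotype were close together, Osmads32 was the lowest and WT lay between it and the other 2 mutants. The abscisic acid and drought list held 3 low members among 18 kept, ABA8OX1, DREB1A and DREB1C, against 0.377% of all genes kept. Of the 15 others, 3 were lowest in Osmads32, against 17.45% of all genes kept.

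SPL2 (LOC_Os01g69830), a SQUAMOSA promoter-binding-like transcription factor, was at 8.54 and 9.48 FPKM in Osmads32, 20.7 and 32.3 in WT, 24.08 and 25.01 in Osmads6, and 22.7 and 23.8 in rep1. The means of the other 3 genotypes were close together, at 2.58 to 2.94 times the mean in Osmads32. It was the 1 member among 15 kept SPL and GRF genes. Of the 14 others, 5 were highest and 1 was lowest in Osmads32, against 18.4% and 17.45% of all genes kept.

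The widest gaps among low members belonged to unnamed loci of chromosome 4. LOC_Os04g54240 was at 1.59 and 2.15 FPKM in Osmads32, 24.7 and 14.8 in WT, 16.1 and 16.2 in Osmads6, and 67.6 and 61.9 in rep1, a log2 gap of -2.58. LOC_Os04g27670 was at 0.0221 and 0.158 FPKM in Osmads32 (2 and 14 reads), 6.80 and 4.07 in WT, 7.15 and 7.12 in rep1, and 185 and 172 in Osmads6, a log2 gap of -2.56. The first was highest in rep1 and the second in Osmads6, so for neither were the other 3 genotypes at 1 level.

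**Figure D4:**
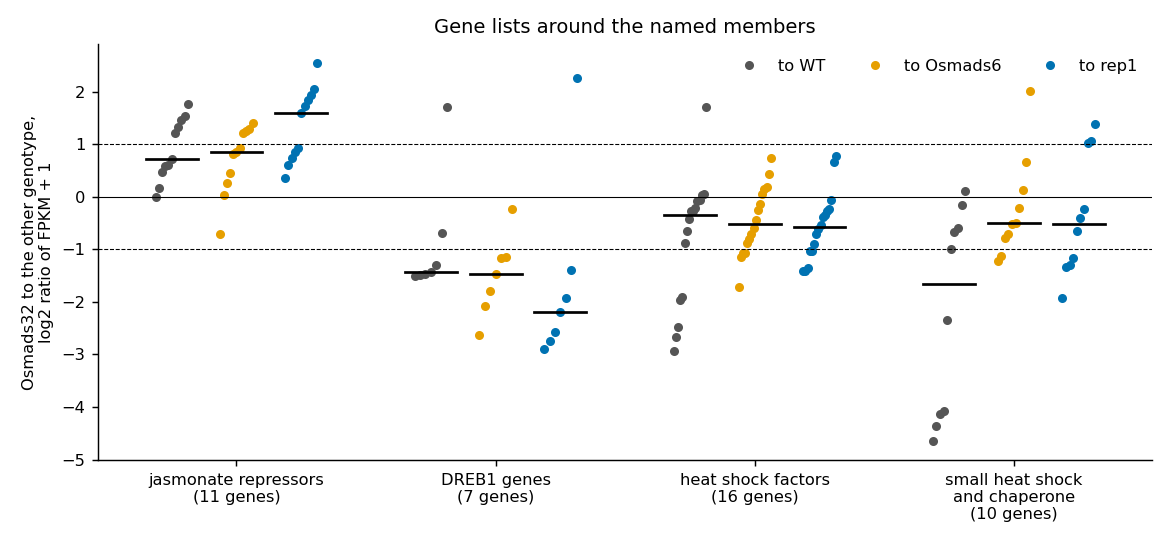
Log2 ratios of (FPKM + 1) of Osmads32 to WT (grey), Osmads6 (orange) and rep1 (blue) for the kept genes of 4 lists; each point is 1 gene, the short black bars are medians and the dashed lines mark 2-fold. The members, chosen by these ratios, are included. Jasmonate repressors lie mostly above 0 and DREB1 genes mostly below 0 against all 3 genotypes. The small heat shock and chaperone genes have medians of -1.67 against WT, -0.51 against Osmads6 and -0.53 against rep1.

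Of 32 lists that were not added after member values had been seen, 9 held a member and 23 held none. The DREB1 list was added after members of it had been seen.

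The 3 genotypes that are not Osmads32 can also be compared with each other. The rule did not use these contrasts, but it did use the highest or lowest of the 3. The choice of members can therefore shape what follows. Over the 80 high members, the other 3 genotypes lay within 2-fold of each other in 50 (62.5%), against 67% of all genes kept. Over the 78 low members they did so in 36 (46.2%). Their log2 range had a median of 0.79 for high and 1.06 for low members, against 0.70 for all genes kept. No test of these differences was made.

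Over the members, rep1 differed from WT in opposite directions for the high and the low genes. Against WT, rep1 was at least 2-fold lower in 21.2% of the high members and at least 2-fold higher in 1.25%, where all genes kept had 8.78% lower and 5.13% higher. For the low members the order was turned, with 23.1% higher and 7.69% lower. The median log2 ratio of rep1 to WT was -0.27 for high members, 0.35 for low members and -0.15 for all genes kept.

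Against Osmads6, rep1 was at least 2-fold lower in 27.5% of the high members and higher in 2.5%, against 16.6% and 10.7% of all genes kept. For low members 20.5% were higher and 14.1% lower. The median log2 ratios were -0.33 for high members, 0.10 for low members and -0.14 for all genes kept. The rule requires all 3 genotypes to lie on 1 side of Osmads32, which limits how they can be ordered, and the comparison with WT and that with Osmads6 share the rep1 library.

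Osmads6 and WT were also compared over the members. Osmads6 was at least 2-fold higher than WT in 5% and lower in 3.75% of the high members, where 7.7% and 7.47% of all genes kept were so. Of the 78 low members 14 (17.95%) were at least 2-fold higher in Osmads6 and 6 (7.69%) lower. The median log2 ratios were 0.01, 0.10 and -0.01 for high members, low members and all genes kept.

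The genotype nearest to a high member's level in Osmads32 is the highest of the other 3. It was WT in 35 high members (43.8%), Osmads6 in 36 (45%) and rep1 in 9 (11.3%), where the highest of the 3 was WT in 30.4%, Osmads6 in 42.0% and rep1 in 27.6% of all genes kept. The Osmads6 share was near that of all genes. The farthest was rep1 in 43 (53.8%), against 46.8% of all genes kept. For low members the nearest is the lowest of the other 3. It was WT in 34 (43.6%), Osmads6 in 30 (38.5%) and rep1 in 14 (17.95%), against 18.08%, 35.1% and 46.8% of all genes kept. The farthest was rep1 in 37 (47.4%), against 27.6% of all genes kept. The rule sets its threshold on the nearest genotype, so these shares are shaped by the choice of members and are given as a description.

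The low members also differed between the runs of WT. WT run 1 was above run 2 in 54 of the 78 low members (69.2%), against 42.8% of all genes kept, and at least 1.5-fold above in 23 (29.5%), against 7.96%. For the high members run 1 was above in 49 of 80 (61.3%) and at least 1.5-fold above in 10%. The median log2 difference of run 1 to run 2 was 0.26 for low members, 0.10 for high members and -0.07 for all genes kept. In the other genotypes the medians for the low members were -0.05 in Osmads6, 0.06 in Osmads32 and 0.04 in rep1. Run 1 was above run 2 in 35.9% of the low members in Osmads6 (50.6% of all genes kept), 60.3% in Osmads32 (47.3%) and 56.4% in rep1 (49.6%). For the DREB1 members the run in question decided the call in 3 genes. With WT run 1 left out, the log2 gap was -0.70 for DREB1G, -0.93 for DREB1H and -0.90 for DREB1E, all outside the threshold though still below the other genotypes.

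**Figure D5:**
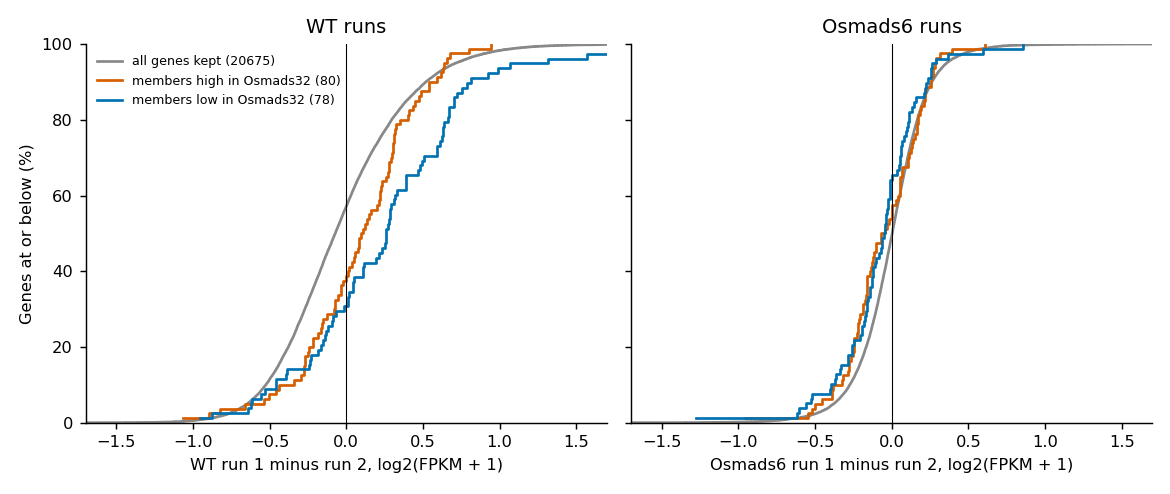
Cumulative share of genes (y axis, %) by the log2 difference in FPKM + 1 between run 1 and run 2 (x axis) in WT (left) and Osmads6 (right), for all genes kept, high members and low members. In WT the curve of the low members lies to the right of that of all genes (median 0.26 against -0.07), while in Osmads6 the low members' median is -0.05.

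Position was not used by the rule, and members were spread over all 12 chromosomes. Chromosome 9 had the highest share each way, with 9 high members (0.787%) and 11 low members (0.962%) of 1144 genes kept. Among the genes kept, 8 of the 80 high members (10%) and 8 of the 78 low members (10.3%) had a member of the same direction as their neighbour in locus order. Under the same rule this share ran from 0% (low in WT) to 19.6% (high in Osmads6) in the other genotypes, a range that takes in both shares in Osmads32.

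The longest row of neighbours was 4 high members on chromosome 9, LOC_Os09g37400 to LOC_Os09g37430, none with a checked name. LOC_Os09g37420 was at 20.8 and 20.3 FPKM in Osmads32, 8.22 and 7.46 in WT, 6.71 and 7.37 in Osmads6, and 5.52 and 9.97 in rep1, and LOC_Os09g37430 followed nearly the same values, at 22.8 and 22.9 FPKM in Osmads32 and at 9.09 FPKM or less elsewhere. LOC_Os09g37410 was at 18.2 and 13.6 FPKM in Osmads32 and at 7.998 FPKM or less elsewhere, and LOC_Os09g37400 at 12.3 and 7.67 FPKM and at 4.03 FPKM or less elsewhere. The Osmads32 runs were the highest at each of these loci. Other high neighbours were pairs on chromosomes 3 and 6. The low neighbours were 4 pairs, among them the HSP17.4 and HSP18.1 pair and the DREB1H and DREB1A pair, with the others on chromosomes 7 and 12.

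A further 4 low members lay at the start of chromosome 9, among 23 kept genes of the first 55 loci. Low members were 0.377% of all genes kept and 0.962% of those on chromosome 9. This stretch was picked after the data had been seen, and the runs of a genotype were far apart there for some genes. Besides LOC_Os09g01400, LOC_Os09g01280 was at 4.39 and 0.816 FPKM in the WT runs and 0.907 and 2.84 in the rep1 runs, against 0.283 and 0.231 in Osmads32. LOC_Os09g01380 was at 2.26 and 0 FPKM in the Osmads32 runs themselves. In LOC_Os09g01050 the runs were closer, at 1.97 and 3.08 FPKM in WT, 2.11 and 1.88 in Osmads6, 1.98 and 2.38 in rep1, and 0.0815 and 0.0831 in Osmads32 (2 reads in each run). Low members without these loci numbered 74, and no high member lies there.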

How the data were processed

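Total RNA was extracted with RNeasy reagents and mRNA was enriched with Dynabeads, per the labels' protocols. The authors deposited FPKM values for 55986 genes in 8 columns, 2 for each of 4 samples. The genome build is IRGSP 1.0, per the submitters' processing notes. Aligner, counter and annotation: not given in the sources used here. A value of FPKM is relative to the library, so abundant genes can shift the rest.

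Each genotype's value was the mean of its 2 columns, read as 2 runs of 1 sample, and the 20675 genes whose 4 genotype means averaged 1 FPKM or more were kept. Ratios are log2 of FPKM plus a pseudocount of 1, which understates differences of low genes. Ratios given as "times" are of mean FPKM without it. "Called" means at least 2-fold, and no test was made because n = 1.

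Reads were worked out from the FPKM steps and came out whole, within 0.02 reads, for 44710 of 44713 genes above 0 in any run, while 11273 genes were at 0 in all. The method was tested on simulated data. For each gene they are known only to within 1 shared multiplier over its runs, and they cover counting error only. No count test was made on them, since 1 sample per genotype leaves no replicates.

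Of 587 pairs of locus and symbol, written from known rice nomenclature, 401 passed a check of chromosome and order (the same order as at least 90% of other pairs) against RefSeq genes of assembly ASM3414082v1. The symbol of 169 was absent, that of 12 was on another chromosome and 5 had several matches. OsMADS32, whose symbol was absent, and REP1, whose symbol was on another chromosome, did not pass and are named as the targeted genes. Named genes are the targeted genes, all members with a checked name, the 2 widest gaps and the genes at the threshold each way. The marker genes OsMADS3, OsMADS13 and OsMADS21 and the loci named by position were also described, and most DREB1 pairs were added after member values had been seen. The members and lists were chosen with earlier results of these data known. Alternatives are given in the closing section. Tools were Python 3.11.15, pandas 2.3.3, NumPy 2.4.6 and matplotlib 3.10.9.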

Additional observations from a re-analysis of the deposited data

How the results depend on the processing

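The number of high members, 80 as reported, and of low members, 78, kept within 1.5 times under no filter, median-ratio scaling of the runs, run 1 alone, run 2 alone, and the added need for both Osmads32 runs to lie beyond all 6 others. Which genes were called changed more than their number. Run 2 alone called 108 high genes, 60 of them members, and 102 low genes, 64 of them members. Only 46 high and 50 low members were called both in run 1 alone and in run 2 alone. With either run of each genotype left out in turn there were 72 to 94 high and 68 to 100 low members, of which 48 and 47 were members each time, LOG, HSFB2B, HSFB2C, HSP17.4, DREB1E, DREB1G and DREB1H not among them. A pseudocount of 5 gave 26 high and 27 low members, and one of 0.1 gave 194 low ones. A filter of 5 FPKM gave 49 high members. Without WT in the reference there were 249 high and 159 low, without Osmads6 199 and 329, and without rep1 148 and 199. A threshold of 1.5-fold gave 295 and 285, and one of 4-fold 7 and 9. The genes set apart in WT, 124 as reported, were 232 with a pseudocount of 0.1, 78 with a filter of 5 FPKM and 204 in run 2 alone, and those in Osmads6 and rep1 stayed within 1.5 times under each alternative tried. The causes were not tested, beyond the construction of each alternative. Over the 18 named members no gap turned in sign in 321 values, and 27 were under 2-fold. These members were chosen for their gaps, and some alternatives, such as a reference without a genotype, cannot narrow a gap. The lack of turns in sign is therefore no test of the gaps. Leaving out the start of chromosome 9, chosen after seeing the data, left 74 low members. No paired analysis was possible because each genotype has 1 sample. Depth limits low values: 25 low members were under 1 FPKM in Osmads32.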
